A study of Danio rerio with 24 samples.

Results

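The transcription factors crx, otx5, six7 and nr2e3 were followed in dissected retinas and whole embryos of young (yng) mutant and wild-type (WT) zebrafish. Every probe set whose symbol in the platform annotation is one of these names was taken, which gave 5 probe sets of 4 genes among 15502 probe sets of 8793 named genes. There was 1 probe set each for crx (NCBI Gene 81881), otx5 (353179) and nr2e3 (492496) and a brighter and a dimmer one for six7 (30625). In the RefSeq annotation of the GRCz12tu assembly the genes lie on chromosomes 5 (crx), 15 (otx5), 7 (six7) and 25 (nr2e3), and smarca4a lies on chromosome 3.

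The study crossed 2 genotypes, 2 tissues and 2 ages, with 3 arrays in each of the 8 groups and 24 arrays in all. The groups were yng retina, WT retina, yng embryo and WT embryo, each at 36 and 52 hours post fertilization (hpf), and each array held RNA from 1 pool. A pool was made of 10 retinas or 10 embryos, except that yng retina pools at 36 hpf held 20 retinas, taken from 10 embryos. Mutants were staged by their wild-type siblings, and the labels name the AB strain for the samples that give a strain. The young mutation lies in smarca4a (brg1), the ATPase subunit of a SWI/SNF chromatin remodelling complex. The retina labels were checked against muscle genes, whose summed intensity over 9 genes was 391 to 917 on retina arrays and 90751 to 101361 on embryo arrays.

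Crx and Otx5 are related homeodomain proteins of the Otx family that bind the regulatory regions of photoreceptor genes, and both are also made in the pineal gland. Six7 is a sine oculis homeobox factor known in zebrafish for its role in cone opsin expression. Nr2e3 is an orphan nuclear receptor that, in mice and humans, takes part in setting rod against cone identity. In the zebrafish retina RNA of these factors appears ahead of that of most genes of the outer segment and of phototransduction.

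Values are the deposited intensities, on a linear scale, and differences are in log2 units from a linear model (limma) fitted to all probe sets after quantile normalization of log2(intensity + 16). A probe set was called where its p, adjusted by Benjamini-Hochberg over all 15502 probe sets, was under 0.05. Errors of differences are standard errors (SE), and p-values measure the spread between pools. The brighter smarca4a probe set read 756.6 to 1251 on the 12 yng arrays and 3134 to 4158 on the 12 WT arrays. Median intensity was 145.3 to 165.3 on retina arrays and 223.3 to 240.7 on embryo arrays. Arrays of 1 replicate number were hybridized on the same day, except that WT embryo 52 hpf replicate 3 stood alone on a later day. All yng arrays went through one fluidics station and all WT arrays through the other, so the station and the genotype cannot be told apart. On either station 1 fluidics module served a single tissue at a single age, so age and tissue comparisons are also module comparisons and these cannot be told apart. The module number was the same for yng and WT. A wash error was recorded for 1 array, yng retina 36 hpf replicate 1.

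The 4 genes shared a pattern of levels. Each was highest in retinas at 52 hpf, lowest in whole embryos at 36 hpf and intermediate in the other groups. The mutation went with a change in only a few places. The calls were crx, higher in yng embryos at 36 hpf, nr2e3, higher in yng embryos at 52 hpf, and six7, lower in yng retinas at 36 hpf. The nr2e3 difference in embryos was of similar size at 36 hpf (0.63, which did not pass) and at 52 hpf (0.72). The six7 call was lost without 1 WT array and with only its own groups fitted. That of nr2e3 was lost on leaving out any single array of its groups. In retinas at 52 hpf many phototransduction genes were lower in the mutant. No probe set of the 4 genes passed the test there, where 19.7% of all probe sets did, and nr2e3 passed in some of the alternative fits.

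**Figure D1:**
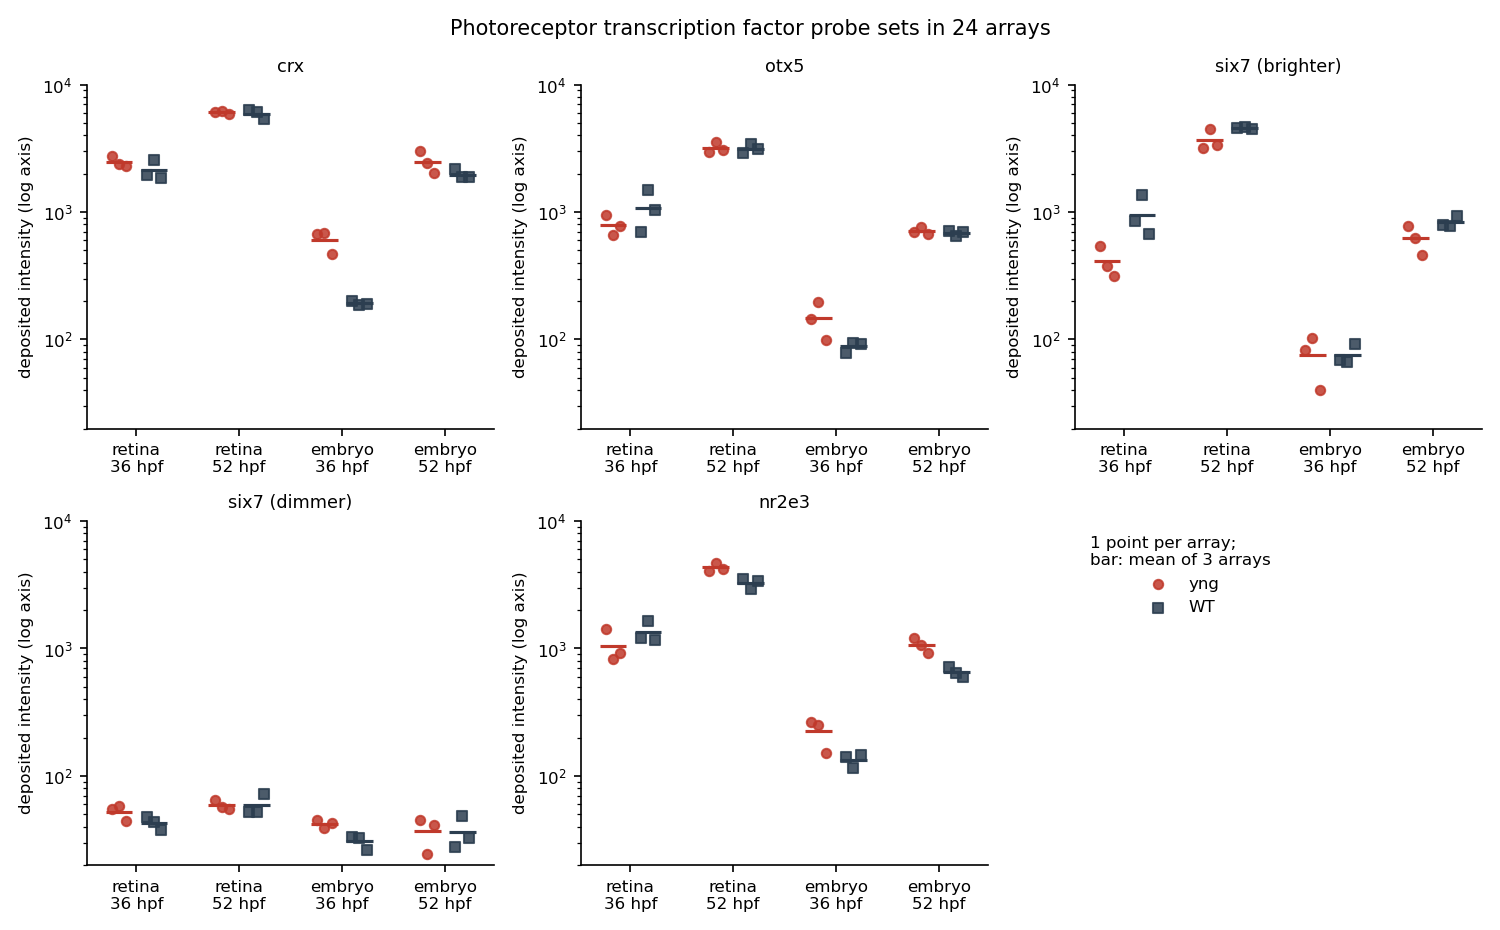
Deposited intensity (log axis) of the 5 probe sets in each of 24 arrays, by tissue and age, with yng arrays left of WT arrays and a bar at the mean of 3 arrays. The crx arrays of yng embryos at 36 hpf (466 to 681) sit above those of WT embryos (187 to 199), while the 6 retina arrays at 52 hpf lie together, and the dimmer six7 probe set stays between 24.6 and 71.5 throughout.

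The level of crx, the cone-rod homeobox gene, was 6105, 6192 and 5892 in yng retinas and 6315, 6097 and 5323 in WT retinas at 52 hpf. At 36 hpf it was 2747, 2394 and 2312 in yng retinas and 1958, 2573 and 1833 in WT retinas. The genotypes overlapped at both ages in the retina. Whole embryos gave 2989, 2415 and 2021 in yng and 2163, 1870 and 1868 in WT at 52 hpf. Whole embryos at 36 hpf gave 667, 681 and 466 in yng and 199, 187 and 190 in WT. Only at this last age and tissue did the 2 genotypes separate fully, as they did there for 23.2% of all probe sets after normalization. In the order of levels, the retina groups at 36 hpf and the embryo groups at 52 hpf overlapped with their neighbours, and both embryo groups at 36 hpf stood below them and apart from each other.

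For otx5, the Otx-family relative of crx, yng retinas at 52 hpf read 2964, 3509 and 3049 and WT retinas 2921, 3388 and 3122. At 36 hpf the values were 948, 656 and 773 in yng retinas and 698, 1483 and 1043 in WT retinas. These groups overlapped at both ages, and the WT retinas at 36 hpf had the widest spread of any otx5 group (SD 394, n = 3). In whole embryos otx5 read 698, 763 and 674 in yng and 709, 648 and 694 in WT at 52 hpf. It read 144, 198 and 99.4 in yng embryos and 78.6, 94.1 and 91.6 in WT embryos at 36 hpf. All yng embryos at 36 hpf were above all WT embryos, though the nearest arrays were close. After normalization 23.2% of all probe sets had no overlap between genotypes there.

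The brighter six7 probe set read 3197, 4453 and 3370 in yng retinas and 4526, 4647 and 4462 in WT retinas at 52 hpf. At 36 hpf it read 536, 379 and 316 in yng retinas and 846, 1347 and 669 in WT retinas. Every yng retina was below every WT retina at each age as deposited. Once arrays were normalized the genotypes stayed apart at 36 hpf, which held for 20.2% of all probe sets. The groups at 52 hpf then overlapped, whereas 34.8% of all probe sets had no overlap. In whole embryos at 52 hpf the values were 779, 630 and 456 in yng and 790, 783 and 922 in WT. At 36 hpf they were 82.3, 103 and 40.2 in yng embryos and 69.3, 66.6 and 91.6 in WT embryos. The yng retinas at 36 hpf had about the level of yng embryos at 52 hpf, with overlapping arrays. The WT retinas at 36 hpf overlapped the WT embryos at 52 hpf.

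The dimmer six7 probe set disagreed with the brighter one. It read 64.4, 57.2 and 54.7 in yng retinas and 52.0, 52.4 and 71.5 in WT retinas at 52 hpf, and it ranked between the 5.10th and the 30.5th percentile of the probe sets on every array. It passed no genotype or age test, while the brighter probe set changed with age in all 4 settings. No detection calls were used here, so whether either probe set measured six7 RNA was not tested. The platform annotation gives a RefSeq mRNA as the source of the dimmer probe set and another GenBank sequence as that of the brighter one. Where six7 is named alone, the brighter probe set is meant, so the six7 results rest on 1 of its 2 probe sets. In retinas at 36 hpf the genotype difference of the dimmer one was 0.16 (adjusted p = 0.669).

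The nuclear receptor gene nr2e3 read 4070, 4692 and 4190 in yng retinas and 3481, 2917 and 3387 in WT retinas at 52 hpf. At 36 hpf it read 1412, 823 and 926 in yng retinas and 1215, 1641 and 1172 in WT retinas. The genotypes did not overlap at 52 hpf, as for 34.8% of all probe sets after normalization, and did overlap at 36 hpf. In whole embryos nr2e3 read 1207, 1060 and 914 in yng and 711, 642 and 596 in WT at 52 hpf. It read 267, 253 and 152 in yng embryos and 142, 115 and 145 in WT embryos at 36 hpf. In both embryo comparisons every yng pool was above every WT pool. After normalization the genotypes did not overlap for 21.9% of all probe sets in embryos at 52 hpf and 23.2% at 36 hpf.

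In whole embryos at 36 hpf, crx was 3.03-fold higher in yng than in WT, a log2 difference of 1.60 ± 0.16 (SE, n = 3 each, adjusted p = 1.84e-06). It was the only one of the 5 probe sets called there, against 5.95% of all probe sets. Within the 3 hybridization days the crx difference was 1.67, 1.82 and 1.30, so each day gave the same direction. The differences of otx5 (0.59 ± 0.20, adjusted p = 0.0974) and nr2e3 (0.63 ± 0.20, adjusted p = 0.0749) did not pass, and nr2e3 did with the replicate number as a block (adjusted p = 0.0254) or with hybridization day as a block (adjusted p = 0.032). On the day of yng embryo 36 hpf replicate 3 the differences were 0.09 for otx5 and 0.06 for nr2e3. Without that array both passed, at 0.82 (adjusted p = 0.0218) for otx5 and 0.87 (adjusted p = 0.0131) for nr2e3. The six7 difference was -0.07, with a 95% interval of -0.60 to 0.46. Without overlap between genotypes were 4 of the 5 probe sets, which was the case for 23.2% of all probe sets after normalization. These were crx, otx5, nr2e3 and the dimmer six7 probe set (0.33, adjusted p = 0.301), which was among the lowest on the arrays. The brighter six7 probe set overlapped. In bulk RNA, more cells that make crx and more crx RNA per cell cannot be told apart.

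Pineal genes were examined beside crx because the pineal gland makes it too. None of 8 measured pineal genes passed in embryos at 36 hpf, and their summed intensity was 467 to 542 in yng and 526 to 556 in WT. Their median difference was -0.05, against 0.01 for all probe sets. The median of a single probe set on embryo arrays was 223.3 to 240.7, so few of the 8 genes could reach it within such a sum. Most of the list thus lay low on the arrays, and a change in the pineal gland could be missed. The part of the pineal gland in the crx difference was not tested. A list of photoreceptor lineage transcription factors was examined too, which also held genes of retinal progenitors (ascl1a, foxn4) and of the eye field (six6a). Of its 24 measured genes, from 36 listed, 5 were higher and 0 lower in yng embryos, where 5.95% of all probe sets were called. They were neurod1 (0.73), six6a (0.56), otx2b (0.55), samd11 (0.50) and ascl1a (0.48), with a list median of 0.16 against 0.01 for all probe sets. Among 38 measured phototransduction and outer segment genes, 1 was lower, the transducin gamma gene gngt1 (-1.19). The levels of neurod1, a basic helix-loop-helix gene of retinal neurons, were 1220 to 1230 in yng embryos and 723 to 830 in WT embryos at this age.

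**Figure D2:**
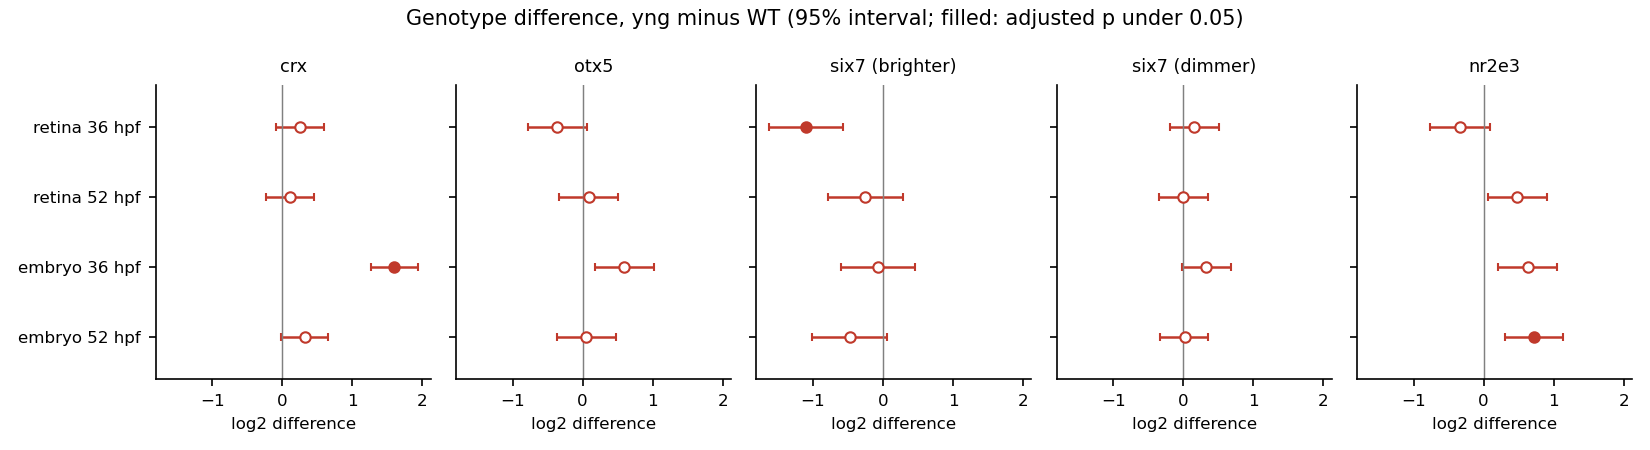
Log2 difference, yng minus WT, of each probe set in retinas and embryos at each age, with 95% intervals and filled points where the adjusted p was under 0.05. The filled points are crx in embryos at 36 hpf (1.60), nr2e3 in embryos at 52 hpf (0.72) and six7 in retinas at 36 hpf (-1.10).

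In whole embryos at 52 hpf, nr2e3 was higher in yng by 0.72 ± 0.20 (1.64-fold, adjusted p = 0.0377), the only one of the 5 probe sets called against 5.90% of all. The 3 replicate numbers gave 0.81, 0.70 and 0.64. This call was near the threshold: leaving out any of the 6 arrays moved its adjusted p to between 0.0522 and 0.164. The crx difference was 0.32 (95% interval -0.02 to 0.66) and the otx5 difference 0.05 (-0.37 to 0.48). The six7 difference was -0.47 (-1.01 to 0.06) although no yng array reached a WT array, as for 21.9% of all probe sets after normalization. In the lineage list ascl1a (0.82) and foxn4 (0.59), genes of retinal progenitors, were higher and six3a (-0.39) was lower.

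In retinas at 36 hpf, six7 was 2.15-fold lower in yng, a log2 difference of -1.10 ± 0.26 (adjusted p = 0.00697). It was the only one of the 5 probe sets called, against 9.08% of all probe sets. The within-day differences were -0.60, -1.71 and -0.99, and all 3 ran the same way. The highest WT array, replicate 2, carried much of the size: without it the difference was -0.83 (adjusted p = 0.0514). With only these 2 groups in the fit the adjusted p was 0.104. The crx difference was 0.26 (-0.09 to 0.60), that of otx5 was -0.36 (-0.78 to 0.07) and that of nr2e3 was -0.34 (-0.76 to 0.09). Within days otx5 gave 0.40, -1.13 and -0.34, and nr2e3 gave 0.26 on the first day and was negative on the other days, so their direction changed between days. The first of these days holds the yng array with the recorded wash error.

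Of the 24 measured lineage factors, 7 were higher and 1 lower in yng retinas at 36 hpf, where 9.08% of all probe sets were called. The other 16 did not pass, and the list median was 0.27 against 0.02 for all probe sets. The higher ones included the retinal homeobox gene rx3 (0.97), the eye-field gene six6a (0.90), rorab (0.70) and the proneural gene ascl1a (0.67). The lower one was thrb (-0.63), the thyroid hormone receptor of red cones. Markers of other retinal neurons were lower for 8 of 13 genes, among them stmn2a (-2.61) and gap43 (-2.25). Whether the makeup of the dissected tissue had a part in the six7 difference was not tested.

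At 52 hpf in the retina 0 of the 5 probe sets were called, where 19.7% of all probe sets were. So few probe sets cannot show a share below that of all. The differences were 0.11 for crx (-0.23 to 0.45), 0.09 for otx5 (-0.34 to 0.51) and -0.25 for six7 (-0.79 to 0.28). The interval of crx leaves out a change as large as the 3.03-fold one seen in embryos at 36 hpf. For nr2e3 the difference was 0.48 ± 0.20 (0.06 to 0.91, adjusted p = 0.106), with 0.32, 0.66 and 0.47 within the 3 days. The nr2e3 arrays did not overlap between genotypes, as for 34.8% of all probe sets after normalization. It passed with the replicate number as a block (adjusted p = 0.0492) and with only these 2 groups fitted (adjusted p = 0.0189).

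Of 38 measured phototransduction and outer segment genes, from 86 listed, 17 were lower and 3 higher in yng retinas at 52 hpf, with a median of -0.26 against 0.04 for all probe sets. The transducin gamma genes gngt1 (-2.14 ± 0.17) and gngt2b (-1.75 ± 0.22), the recoverin gene rcvrn2 (-1.99 ± 0.21) and the phosphodiesterase subunit gene pde6hb (-1.63 ± 0.23) had the largest differences. The 3 higher genes were gngt2a (0.96), which is also a transducin gamma gene, unc119b (0.65) and gc2 (0.44). Of the lineage transcription factors, 5 were higher and 3 lower of 24, with a median of 0.06 against 0.04 for all probe sets. Both lists are read against the 19.7% of all probe sets called in this comparison. The higher ones were ascl1a (1.23), insm1b (1.22), foxn4 (0.85), otx2b (0.35) and samd11 (0.34). The lower ones were mef2d (-0.53), six6a (-0.44) and six3a (-0.29). The level of ascl1a was 4370 to 5540 in yng retinas and 1790 to 2510 in WT retinas at this age.

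The marker lists of other cell types at 52 hpf are read against the 19.7% of all probe sets called. Markers of other retinal neurons were lower in yng retinas for 12 of 13 genes, for example calb2b (-3.79) and pvalb6 (-3.28). On the Muller glia list 5 of 8 genes were lower. Lens genes were higher for 4 of 6, and their summed intensity was 450 to 3721 in yng retinas and 150 to 186 in WT retinas. In the remaining lists, 2 of 5 bipolar cell genes and 1 of 9 muscle genes were lower and 2 of 5 pigment cell genes were higher. Of 18 brain genes 3 were higher and 2 lower, of 11 blood genes 1 was higher and 2 lower, and of 8 pineal genes 1 was higher and 1 lower, shares near that of all probe sets. The part of these lists in the results for crx, otx5, six7 and nr2e3 was not tested.

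**Figure D3:**
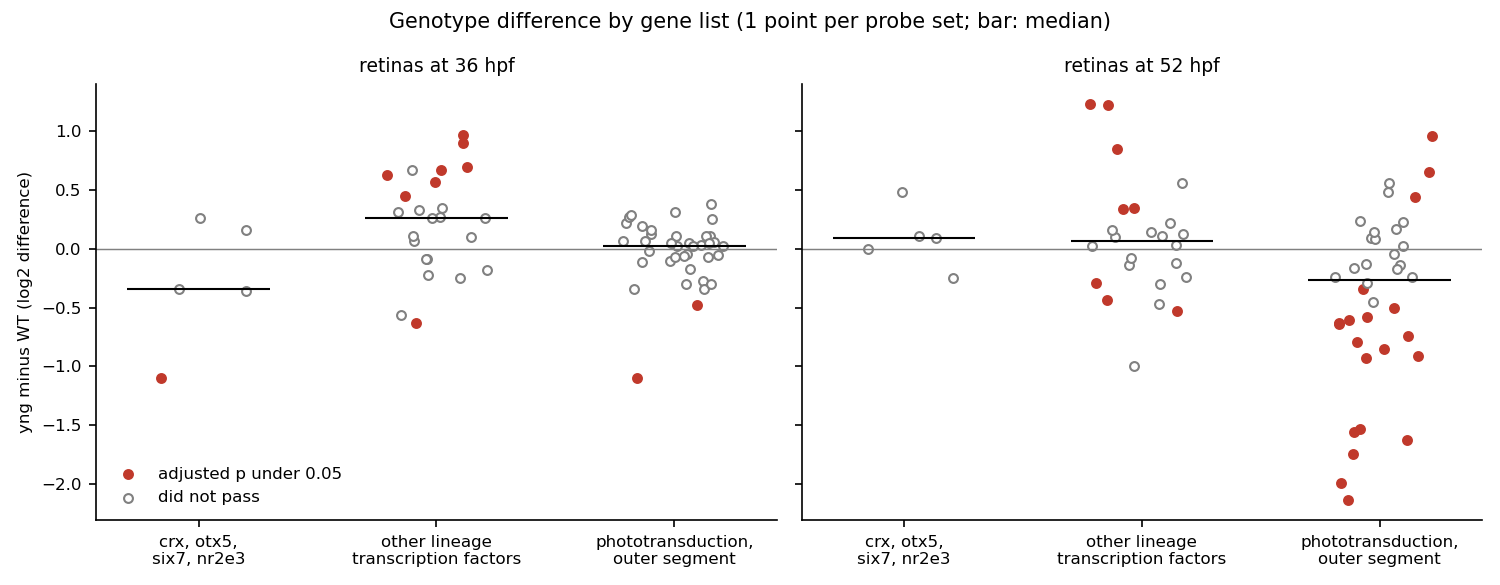
Log2 difference, yng minus WT, in retinas at 36 hpf (left panel) and 52 hpf (right panel), with 1 point per probe set for crx, otx5, six7 and nr2e3, for 24 other lineage transcription factors and for 38 phototransduction and outer segment genes; red points passed and bars mark medians. At 52 hpf 17 phototransduction genes lie below zero among the red points. None of the 5 points of the named factors is red there, where 19.7% of all probe sets passed.

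All 4 genes rose between 36 and 52 hpf in every combination of genotype and tissue. In yng retinas the rise was 1.22 for crx, 1.90 for otx5, 2.96 for six7 and 1.96 for nr2e3. In WT retinas it was 1.36, 1.45, 2.12 and 1.14 for the same genes. These were 4 of 5 probe sets called in each, against 25.6% of all probe sets in yng retinas and 36.9% in WT retinas, and the dim six7 probe set did not pass. The smallest rise, that of nr2e3 in WT retinas, was 2.21-fold (adjusted p = 1.18e-04). The share of called probe sets that were higher at 52 hpf was 47.5% in yng retinas and 43.7% in WT retinas, and 57.9% and 58.0% with intensities as deposited.

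In whole embryos the rise with age was 2.03 for crx, 2.17 for otx5, 2.80 for six7 and 2.22 for nr2e3 in yng. It was 3.31 for crx, 2.71 for otx5 and 2.13 for nr2e3 in WT, where six7 rose 9.20-fold. Again 4 of 5 probe sets were called, against 8.83% of all probe sets in yng embryos and 14.3% in WT embryos. The crx rise was 4.09-fold in yng embryos and 9.94-fold in WT embryos, and each replicate number gave a smaller rise in yng (2.17, 1.79 and 2.13) than in WT (3.35, 3.30 and 3.29).

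**Figure D4:**
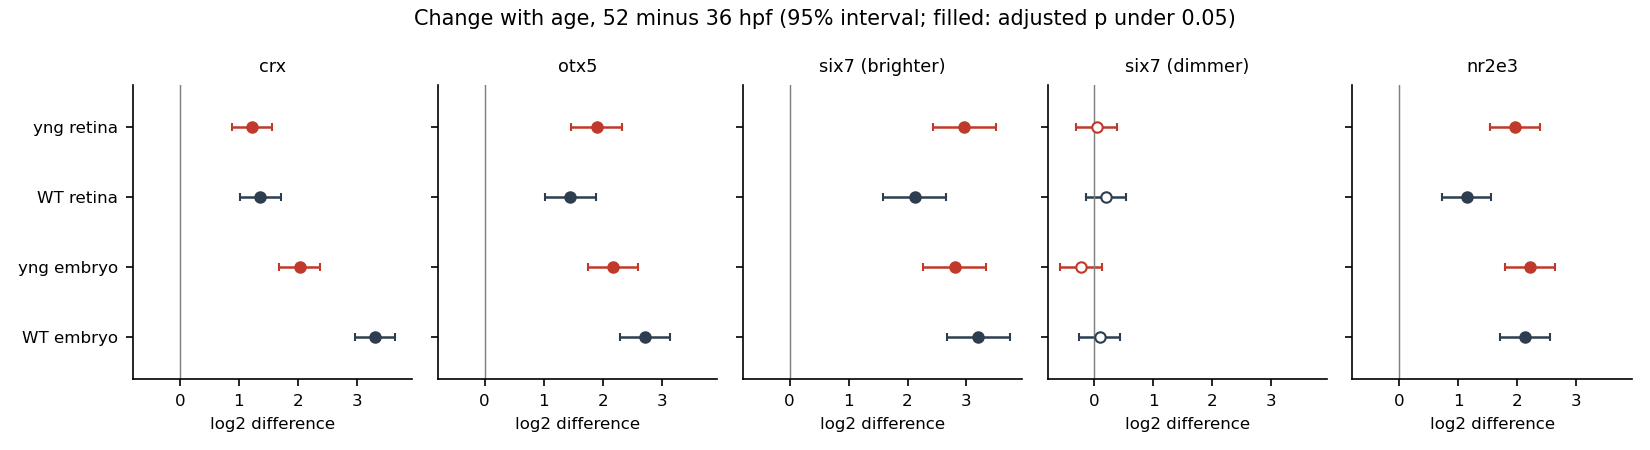
Log2 difference between 52 and 36 hpf for each probe set in yng retina, WT retina, yng embryo and WT embryo, with 95% intervals and filled points where the adjusted p was under 0.05. All points of crx, otx5, nr2e3 and the brighter six7 probe set are filled and above 1, and the crx point of yng embryos (2.03) lies below that of WT embryos (3.31).

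The difference in rise between genotypes was tested as an interaction. For crx in embryos it was -1.28 ± 0.23 (adjusted p = 0.0164), 1 of 5 probe sets called against 0.194% of all probe sets. Leaving out an array gave differences of -1.46 to -1.16. For 6 of the 12 arrays the adjusted p then passed above the threshold, at 0.0505 to 0.0749: WT embryo 36 hpf replicate 2, WT embryo 52 hpf replicate 1, yng embryo 36 hpf replicates 1 and 2, and yng embryo 52 hpf replicates 2 and 3. With only the embryo groups fitted it was 0.0727. The lineage factor neurod1 also had a smaller rise in yng embryos than in WT embryos (-0.78 ± 0.14, adjusted p = 0.0164). In retinas 0 of 5 interactions were called, against 4.11% of all probe sets. That of crx was -0.15 (-0.63 to 0.34), and that of six7 was 0.85 (0.10 to 1.60, adjusted p = 0.276). For nr2e3 it was 0.82 ± 0.29 (adjusted p = 0.138), and without the array with the wash error it was 1.07 (adjusted p = 0.0206).

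Of the 38 phototransduction genes, 10 rose and 1 fell with age in yng retinas, where 25.6% of all probe sets were called, so the share called was near that of all probe sets. In WT retinas 17 rose and 3 fell, where 36.9% of all probe sets were called. The rise of rcvrn2 was 4.32 in yng retinas and 5.22 in WT retinas, that of prom1b, a gene of outer segment discs, 3.69 and 4.54 in the same order of groups. The interaction of genotype and age was negative for 8 called genes, led by gngt1 (-2.19 ± 0.25) and pde6hb (-1.94 ± 0.32), and positive for 1, unc119b (0.49 ± 0.13), which changed with age by -0.42 in yng retinas and -0.90 in WT retinas. These were called where 4.11% of all probe sets were. The median interaction of that list was -0.25, against 0.03 for all probe sets.

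The signal of each gene was higher on retina arrays than on whole embryo arrays. At 52 hpf the log2 difference, retina minus embryo, was 1.57 for crx, 2.50 for otx5, 2.91 for six7 and 2.35 for nr2e3 in yng. It was 1.78, 2.47, 2.69 and 2.58 for the same genes in WT. At 36 hpf it was 2.39, 2.78, 2.75 and 2.60 in yng and 3.73, 3.73, 3.78 and 3.56 in WT. All 5 probe sets were called in each of the 4 comparisons, where 73.7% (yng, 52 hpf), 75.1% (yng, 36 hpf), 70% (WT, 52 hpf) and 73.6% (WT, 36 hpf) of all probe sets were called. After quantile normalization the median difference over all probe sets, retina minus embryo, was 0.37 to 0.40. The differences of the 4 genes are read against that shift. With intensities as deposited that median was -0.08 to -0.02, the differences were 1.31 to 3.35, and the share of called probe sets that were higher in retinas was 33.4% to 38.9% against 69.0% to 71.2%. The dim six7 probe set, at 0.70 to 0.98, was lost at 36 hpf as deposited, at 0.22 in yng (adjusted p = 0.237) and 0.33 in WT (adjusted p = 0.0842).

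The excess in retinas at 36 hpf was smaller in yng than in WT for crx, by -1.34 ± 0.23 (adjusted p = 0.00177), and 1 of 5 probe sets was called against 2.37% of all. It stayed past the threshold without any single array of these groups, at -1.52 to -1.18 and an adjusted p of at most 0.00702. The others were -0.95 for otx5 (adjusted p = 0.101), -1.03 for six7 (adjusted p = 0.188) and -0.96 for nr2e3 (adjusted p = 0.0931, and 0.0333 with the replicate number as a block). Without yng embryo 36 hpf replicate 3 all of otx5 (-1.18), six7 (-1.35) and nr2e3 (-1.20) passed, without WT retina 36 hpf replicate 1 otx5 did (-1.20), and without yng retina 36 hpf replicate 1 nr2e3 did (-1.22). At 52 hpf 0 of 5 were called, against 6.84% of all probe sets, with differences of -0.23 to 0.22. The interaction of genotype, age and tissue was called for 0 of 5, against 0.871% of all, with 1.14 ± 0.33 for crx (adjusted p = 0.161). With the replicate number as a block that of crx passed (1.14, adjusted p = 0.0212), as it did with hybridization day as a block (1.09, adjusted p = 0.0477).

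**Figure D5:**
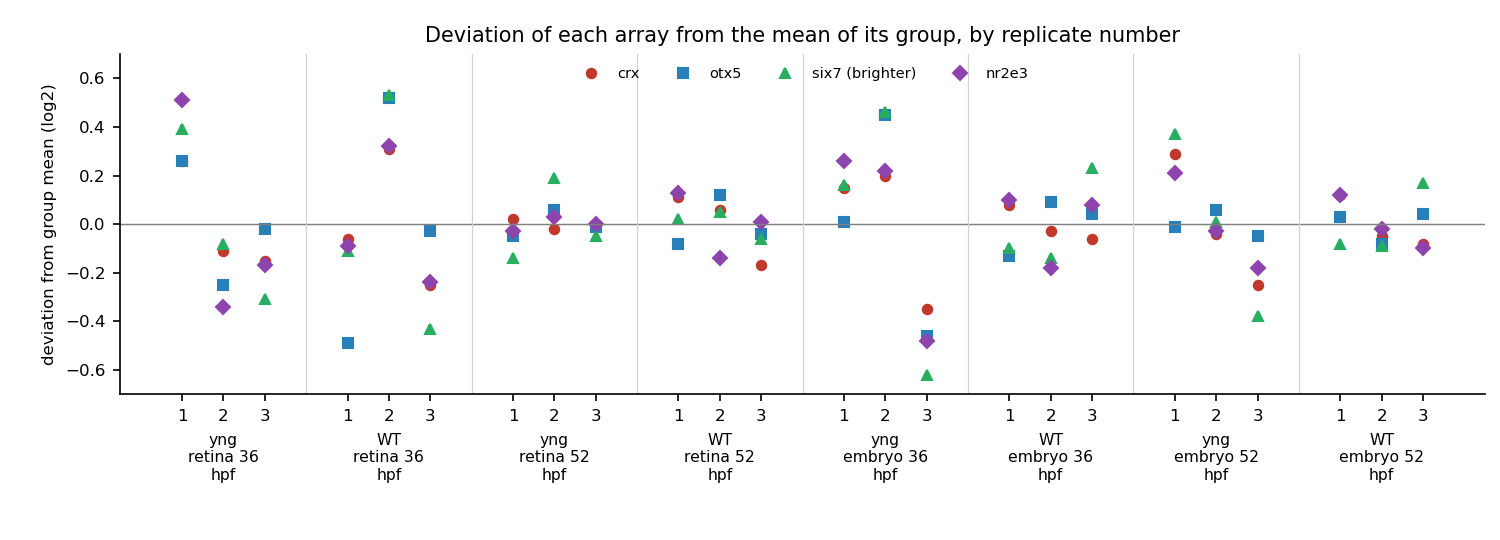
Deviation of each array from the mean of its group (log2) for crx, otx5, six7 and nr2e3, by group and replicate number. In yng embryos at 36 hpf replicate 3 is the lowest array for all 4 probe sets, and in WT retinas at 36 hpf replicate 2 is the highest for all 4.

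In some groups an array deviated the same way for all 4 genes. In yng embryos at 36 hpf replicate 3 was below the group mean by 0.35 for crx, 0.46 for otx5, 0.62 for six7 and 0.48 for nr2e3 on the log2 scale. In WT retinas at 36 hpf replicate 2 was above it by 0.31, 0.52, 0.53 and 0.32. In yng retinas at 36 hpf replicate 1, the array with the wash error, was above it by 0.26, 0.26, 0.39 and 0.51. Other groups had no such shared direction: WT retina 52 hpf replicate 1 deviated by 0.11, -0.08, 0.02 and 0.13 for the same genes. Over the 24 arrays the log2 values of the 4 genes had Pearson r of 0.931 (crx with six7) to 0.987 (otx5 with nr2e3), and 0.625 to 0.868 after the group means were removed. These are descriptions: the points share pools, arrays and hybridization days.

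Among 8407 other probe sets with 1 gene symbol and a group mean of at least 100, the patterns most like each gene were named by Pearson r over the 24 arrays. For crx they were vsx1 (0.973), neurod1 (0.967), ndrg1b (0.954), ikzf5 (0.951) and mab21l1 (0.941). For otx5 they were ndrg1b (0.981), neurod1 (0.978), vsx1 (0.974), gpm6aa (0.966) and tapt1b (0.965). For six7 they were ndrg1b (0.980), dnajb6a (0.966), tapt1b (0.959), sod1 (0.956) and gpm6ba (0.955). For nr2e3 they were ndrg1b (0.977), vsx1 (0.977), gadd45ga (0.970), neurod1 (0.969) and ppm1db (0.961). The 24 points fall into the same 8 groups, so such values mostly compare group means.

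The gene vsx1 encodes a homeodomain factor of bipolar cells. At 52 hpf it read 5650 to 6670 in yng retinas and 4310 to 6130 in WT retinas, and at 36 hpf 236 to 315 in yng embryos and 91.7 to 182 in WT embryos. Its genotype difference in embryos at 36 hpf was 0.77 ± 0.25 (adjusted p = 0.0805), and it passed none of the 4 genotype tests. The ndrg1b gene, of a family regulated downstream of Myc, read 760 to 1540 in yng retinas and 1660 to 2160 in WT retinas at 36 hpf, with a difference of -0.76 ± 0.24 (adjusted p = 0.0509).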

How the data were processed

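RNA of 24 pools was measured on 1-colour Affymetrix zebrafish arrays. The authors deposited linear intensities, from 0 to 20110, 1 for each probe set of an array. Their probe summary and array scaling are not given in the sources used here. Of the deposited array records, the hybridization day, fluidics station and module and wash errors were used. After 115 control probe sets were left out, 15502 were tested; 10795 had 1 gene symbol, 135 several and 4572 none in the platform annotation, updated through RefSeq (GRCz12tu). With R 4.3.3 and limma 3.58.1, log2(intensity + 16) after quantile normalization was fitted with 1 mean per group over all 24 arrays (16 residual degrees of freedom), and 17 contrasts were adjusted by Benjamini-Hochberg over all probe sets. Figures were drawn with matplotlib 3.10.9. The number of arrays limits the precision: median within-group SD was 0.149 to 0.199 (log2), and on simulated data for yng against WT retinas at 52 hpf, over 15502 probe sets, changes of 0.5, 1 and 2 were recovered in 34.3%, 85.1% and 97.0% of cases.

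The named genes are the 4 factors, up to 4 genes of largest difference past the threshold per list (others named complete a small count), the 5 most alike patterns per bright probe set, and smarca4a; where a list gene had several probe sets the brightest was used. The factors and lists were chosen with earlier results of these data known. Other lists were pineal, bipolar cell, other retinal neuron, Muller glia, lens, pigment, brain, muscle and blood genes. Alternatives were deposited or median-scaled intensities, offsets of 1 and 64, a filter at 50, blocks for replicate number or hybridization day, an intensity trend, only the groups of a contrast, and leaving out each array. The numbers were taken to pair the arrays because the array records put same-numbered arrays on 1 hybridization day, apart from 1 array. Same-numbered arrays deviated together (median r 0.331, lowest 0.0743). Deviations from a group mean cancel out within the group, so the median r of -0.169 between other numbers is no separate support.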

Additional observations from a re-analysis of the deposited data

Results flagged for a closer look

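Among the 85 values tested (5 probe sets in 17 contrasts), the genotype difference of crx itself differed between conditions in 2. The genotype effect on crx was smaller at 52 than at 36 hpf in whole embryos, by -1.28 ± 0.23 (adjusted p = 0.0164, limma interaction): yng minus WT was 1.60 at 36 hpf and 0.32 at 52 hpf. It was also smaller in retinas than in whole embryos at 36 hpf, by -1.34 ± 0.23 (adjusted p = 0.00177), with yng minus WT at 0.26 in retinas and 1.60 in embryos. Both interactions use the same yng and WT embryos at 36 hpf. For crx all 3 yng arrays were above all 3 WT arrays there, and 23.2% of all probe sets had no overlap after normalization.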

How the results depend on the processing

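The 16 rises with age and the 16 retina differences of the 4 bright probe sets kept their direction and their call in every setting. The number of the 5 probe sets called moved in these cases. It was 2 in place of 1 for genotype by tissue at 36 hpf with arrays scaled to a common median (nr2e3 -1.04, adjusted p = 0.0492) and with a block for hybridization day. It was 0 in place of 1 for embryos at 52 hpf with offset 1 (nr2e3 0.73, adjusted p = 0.0569), and, when a contrast was fitted on its own groups, 0 in place of 1 for retinas at 36 hpf and for genotype by time in embryos, and 1 in place of 0 for retinas at 52 hpf. The day block gave 2 in place of 1 for embryos at 36 hpf and 1 in place of 0 for the three-way interaction (crx 1.09, adjusted p = 0.0477). Leaving out 1 array gave 0 to 1 for retinas at 36 hpf, 0 for embryos at 52 hpf, 1 to 3 for embryos at 36 hpf, 0 to 1 for genotype by time in retinas and in embryos, and 1 to 4 for genotype by tissue at 36 hpf. Apart from settings with fewer arrays, the cause was not tested.

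Replicate numbers were shared by all groups and matched the hybridization day, except for WT embryo 52 hpf replicate 3. With a replicate block the probe sets called were 1 in retinas at 52 hpf, 2 in embryos at 36 hpf (nr2e3 0.63, adjusted p = 0.0254), 2 for genotype by tissue at 36 hpf (nr2e3 -0.96, adjusted p = 0.0333) and 1 for the three-way interaction (crx 1.14, adjusted p = 0.0212), and the block changed no other call of the 4 genes. All-probe-set counts with the replicate block, against the main count, were 4818 against 3057 (retina 52 hpf), 2865 against 1408 (retina 36 hpf), 2116 against 915 (embryo 52 hpf), 2247 against 922 (embryo 36 hpf), 2775 against 1369 (age, yng embryo), 3893 against 2221 (age, WT embryo), 1406 against 637 (genotype by time, retina), 66 against 30 (genotype by time, embryo), 1971 against 1061 and 816 against 367 (genotype by tissue, 52 and 36 hpf) and 292 against 135 (three-way). With the day block they were 4770, 2793, 1458, 2198, 2724 (age, yng embryo), 1353, 1760, 765 and 215, in that order of comparisons without the WT embryo and genotype by time embryo ones. With contrasts fitted on their own groups they were 331 (retina 36 hpf), 449 (embryo 36 hpf), 384 (genotype by time, retina) and 184 (genotype by tissue, 36 hpf). Genotype by time in embryos gave 18 with a common median, 12 with offset 1, 47 with offset 64 and 18 and 19 without yng embryo 52 hpf replicates 3 and 2, and the three-way count was 72 with offset 1. Deposited intensities gave 7043 in place of 10854 for WT retina against embryo at 52 hpf, and leaving out 1 array gave 594 for embryos at 36 hpf, 603 for embryos at 52 hpf, and 786 and 820 for age in yng embryos. In retinas at 52 hpf, 13 to 17 phototransduction genes were lower and 1 to 4 higher, and 3 to 7 lineage factors were higher and 0 to 5 lower. Probe sets near background, such as the dimmer one of six7, limit what the arrays show. A measure of RNA quality, the log2 ratio of 3' to 5' gapdh signal, averaged 2.66 to 3.17 by group. In retinas it was 3.02 in yng and 2.66 in WT at 52 hpf, and 2.83 and 3.05 at 36 hpf. The arrays of the genotypes overlapped at both ages, and the part of RNA quality in the differences was not tested.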
